A study of Homo sapiens with 18 samples.

Results

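Expression is described for 8 genes of the Wnt pathway, of 58735 genes in the count table: the ligand genes WNT5A and WNT5B, the secreted antagonist genes DKK1, DKK3 and SFRP1, the receptor genes FZD7 and LRP6, and AXIN2, a target of the pathway. They were taken by gene symbol, matched to the Ensembl identifiers of the table. All 8 passed the filter on low counts. The study asked how PODO/TERT256 cells, a human podocyte line immortalised with telomerase, respond to inflammation on hemispheres that have either a fractal or a smooth surface. Its 18 RNA-seq libraries form 6 groups of 3. Cells on fractal hemispheres and cells on smooth hemispheres received the cytokines TNF-α and IL-6, cells on each surface met THP-1-derived macrophages (THP-1 is a monocytic line from a human leukaemia), and cells on each surface were kept as controls. The labels give no duration or dose, no flat culture was used here, and all groups share the single cell line and the hemisphere format.

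Wnt proteins are secreted lipid-modified ligands that bind Frizzled receptors. In the canonical branch, Frizzled and the co-receptor LRP6 or LRP5 together stop the destruction of β-catenin, which then acts with TCF/LEF factors on target genes such as AXIN2. WNT5A and WNT5B mostly signal without β-catenin, through routes that act on the cytoskeleton and cell polarity. DKK1 blocks the pathway by binding LRP6, SFRP1 by binding Wnt ligands, and DKK3 is a divergent family member whose place in the pathway is debated. In podocytes, the cells that form the filtration slits of the kidney glomerulus, sustained β-catenin activity is known to accompany injury.

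The 8 genes were selected on expression values measured in these libraries across the 6 groups, and no record says which comparison led to their choice. Their fold changes and calls are therefore a description of these libraries, without p-values and without standing as independent evidence. Levels are CPM, counts brought to a common library size with TMM scaling. Each fold change is on the log2 scale with its standard error (SE), from an edgeR quasi-likelihood model of all 18 libraries, and an interaction is the treatment's log2 change on fractal hemispheres minus that on smooth ones. The SE was derived as the absolute log2 change divided by the square root of the test's F statistic. A gene is called when its Benjamini-Hochberg adjusted p over all 16129 genes tested is under 0.05.

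The genes lie on separate chromosomes except for WNT5B and LRP6, which are both on chromosome 12. In GENCODE 29 on GRCh38, DKK1 (ENSG00000107984) spans chromosome 10 from 52314296 to 52318042 on the plus strand and DKK3 (ENSG00000050165) chromosome 11 from 11963106 to 12009769 on the minus strand. WNT5A (ENSG00000114251) spans chromosome 3 from 55465715 to 55490539 on the minus strand and WNT5B (ENSG00000111186) chromosome 12 from 1529891 to 1647243 on the plus strand. AXIN2 (ENSG00000168646) spans chromosome 17 from 65528563 to 65561647 and LRP6 (ENSG00000070018) chromosome 12 from 12116025 to 12267012, both on the minus strand. FZD7 (ENSG00000155760) spans chromosome 2 from 202034587 to 202038445 on the plus strand. The counts cover whole genes, so isoforms and separate start sites were not resolved.

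RefSeq promoters were matched for 3 of the 8 genes, DKK1, WNT5A and WNT5B, with 5 entries in all, each running from 250 bases before to 50 bases after a start site on GRCh38.p14. Those of DKK1 and WNT5A are shown because these genes had the widest range of levels, on a log scale, among the antagonists and the ligands of the 8 genes. They were searched on both strands for the TCF/LEF motif, ATCAAAG or TTCAAAG, and for the core NF-kB motif, GGG and CC with any 5 bases between them, since the canonical branch acts through TCF/LEF factors and TNF-α through NF-kB. Capitals mark the matches, including those that are the reverse complement of the motif.
DKK1, chr10:52314031-52314330, plus strand: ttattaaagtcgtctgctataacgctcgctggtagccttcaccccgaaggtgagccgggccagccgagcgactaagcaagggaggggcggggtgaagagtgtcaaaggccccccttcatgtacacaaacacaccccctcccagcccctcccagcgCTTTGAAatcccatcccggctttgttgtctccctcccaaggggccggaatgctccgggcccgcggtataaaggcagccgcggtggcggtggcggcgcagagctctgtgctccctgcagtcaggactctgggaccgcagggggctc
WNT5A, chr3:55481349-55481648, minus strand: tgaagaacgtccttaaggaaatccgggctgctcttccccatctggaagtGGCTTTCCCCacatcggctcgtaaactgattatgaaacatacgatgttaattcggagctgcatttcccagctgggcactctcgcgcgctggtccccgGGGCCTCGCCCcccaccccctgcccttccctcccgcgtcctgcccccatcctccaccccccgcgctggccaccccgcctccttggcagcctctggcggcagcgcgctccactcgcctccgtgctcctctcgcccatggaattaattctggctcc
WNT5A, chr3:55487257-55487556, minus strand: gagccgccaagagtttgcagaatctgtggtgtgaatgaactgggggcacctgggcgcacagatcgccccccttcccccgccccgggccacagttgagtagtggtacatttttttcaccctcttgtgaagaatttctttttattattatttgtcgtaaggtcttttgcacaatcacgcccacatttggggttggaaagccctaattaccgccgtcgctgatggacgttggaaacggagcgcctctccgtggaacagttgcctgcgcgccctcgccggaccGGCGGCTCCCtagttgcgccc
The DKK1 promoter held 1 TCF/LEF match, whose first base is at −95 relative to the start site, and 0 matches to the NF-kB letters. The WNT5A promoter at chr3:55481349-55481648 held 3 matches to the NF-kB letters, of which 2 overlap each other, and the other WNT5A promoter held 1. The TCF/LEF letters occur in 2409 of 35116 RefSeq promoters of the same length (6.86%) and the NF-kB letters in 20602 (58.7%). These matches describe the letters and are not evidence of binding.

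The library totals were 11488204 to 21264180 counts. Fractal THP-1 replicate 3 stood apart, with 17934 genes detected and 0.8474% of counts from mitochondrial genes, and smooth cytokines replicate 2 had 8.093% mitochondrial counts. Between 4 and 7 of 8 listed podocyte markers had a count in a group. The 18 listed monocyte and macrophage markers summed to 22.5–23.4 CPM of unscaled totals in fractal THP-1 libraries, 39.7–46.4 CPM in smooth THP-1 libraries, 2.19–3.62 CPM in fractal cytokine libraries, 4.42–5.27 CPM in smooth cytokine libraries, 2.02–3.34 CPM in fractal controls and 2.18–2.72 CPM in smooth controls. In fractal THP-1 libraries 15 of the 18 had a count, with C1QA, MRC1 and C1QB at 0, and in smooth THP-1 libraries 16 had one, with MRC1 and C1QB at 0. The 8 mesangial and fibroblast markers summed to 233–245 CPM in fractal THP-1 libraries and 252–271 CPM in smooth THP-1 libraries, to 573–603 CPM and 469–610 CPM in fractal and smooth cytokine libraries, and to 389–393 CPM and 505–542 CPM in fractal and smooth controls. These sums hide opposite moves within the list. In TMM-scaled CPM, mean TAGLN was 346 in smooth controls and 137 in smooth cytokine libraries, and mean DCN was 10.3 and 225. The labels do not say whether macrophages were removed before RNA was extracted in the THP-1 groups. Nothing in the labels says that replicates came from separate cultures, so the spread behind the tests may be technical. In such bulk samples, fewer cells of a type and less RNA per cell cannot be told apart.

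**Figure D1:**
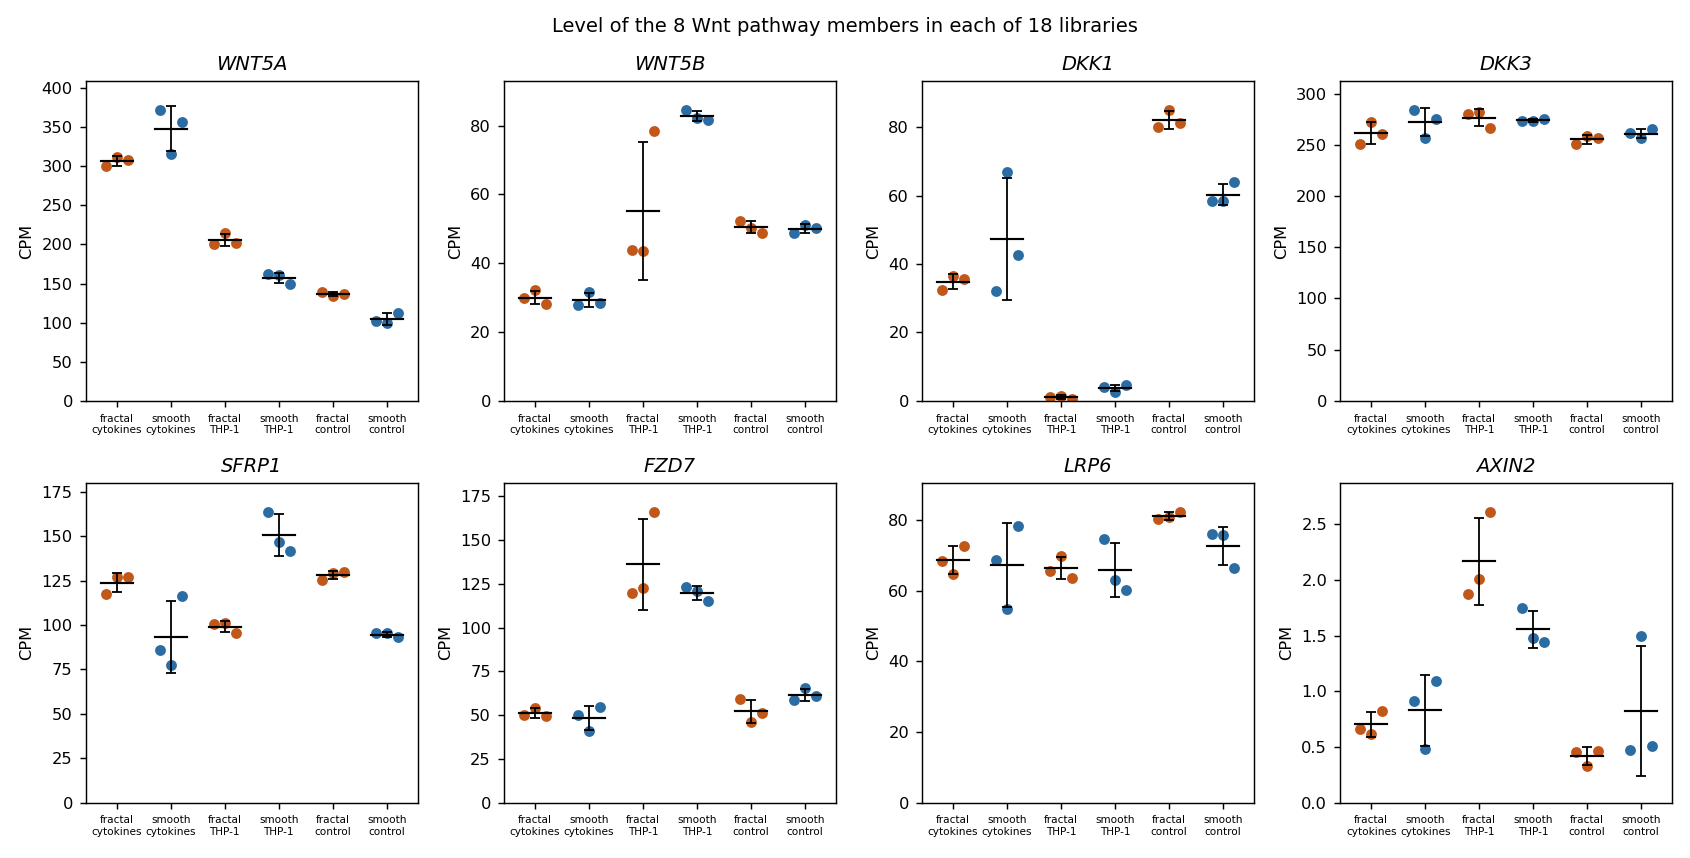
CPM (TMM-scaled, linear axes from 0) of each of the 8 genes in every library, by group, with fractal hemispheres in orange and smooth ones in blue. Points are the 3 libraries of a group and black bars their mean ± SD, and the DKK1 points of both THP-1 groups lie between 0.421 and 4.57 CPM, below all other DKK1 points.

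**Figure D2:**
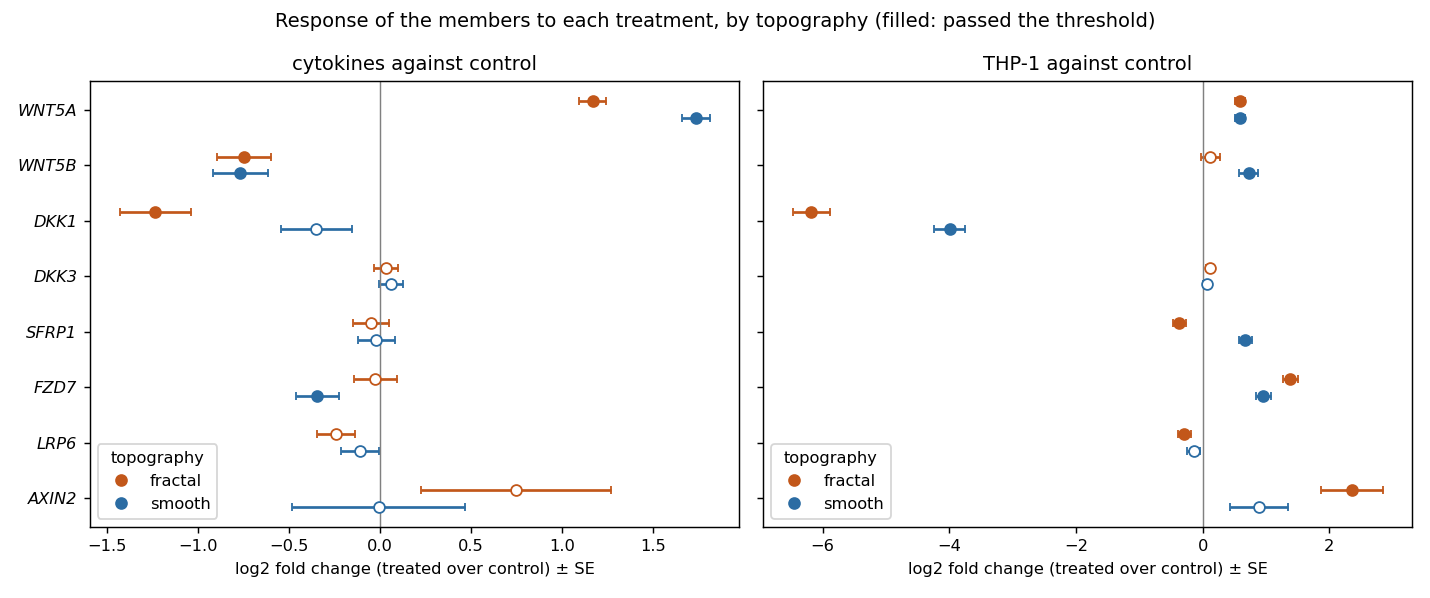
Log2 fold change ± SE of the 8 genes under cytokines (left) and THP-1 macrophages (right) against control, with fractal hemispheres in orange above smooth ones in blue, and filled points for called changes. DKK1 with THP-1 macrophages is the largest change, at −6.18 on fractal and −3.99 on smooth hemispheres, and SFRP1 with THP-1 macrophages lies on opposite sides of 0 on the 2 surfaces.

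Over the 8 genes, cytokines gave 3 calls on fractal hemispheres (1 higher, 2 lower), where 25.8% of all tested genes were called (13% higher, 12.9% lower), and 3 on smooth ones (1 higher, 2 lower), where 25.7% were called (13.2% higher, 12.4% lower). THP-1 macrophages gave 6 calls on fractal hemispheres (3 higher, 3 lower), against 50.5% of all genes (25% higher, 25.5% lower), and 5 on smooth ones (4 higher, 1 lower), against 35.1% (17.3% higher, 17.7% lower). Fractal minus smooth gave 4 calls with THP-1 macrophages (1 higher, 3 lower), against 20% of all genes (8.25% higher, 11.7% lower). It gave 1 under cytokines (higher), against 4.46% of all genes (1.72% higher, 2.74% lower), and 2 in controls (both higher), against 1.77% (0.651% higher, 1.12% lower). The cytokine interaction gave 1 call (lower), against 2.7% of all genes (1.28% higher, 1.43% lower), and the THP-1 interaction gave 2 (both lower), against 13.2% (5.35% higher, 7.88% lower). Since the genes were chosen from these libraries, nothing is read from their share.

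WNT5A, the ligand gene, was highest under cytokines, intermediate with THP-1 macrophages and lowest in controls. In cytokine-treated cells WNT5A was at 300, 311 and 309 CPM on fractal hemispheres, against 372, 316 and 357 CPM on smooth ones. With THP-1 macrophages WNT5A was at 200, 214 and 202 CPM on fractal hemispheres, against 162, 161 and 150 CPM on smooth ones. In controls WNT5A was at 139, 134 and 136 CPM on fractal hemispheres, against 102, 99.1 and 113 CPM on smooth ones. The 6 groups did not overlap, and their order from low to high was smooth control, fractal control, smooth THP-1, fractal THP-1, fractal cytokines and smooth cytokines. Fractal cells thus had more WNT5A than smooth cells in controls and with THP-1 macrophages but not under cytokines.

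The cytokines raised WNT5A by 1.17 ± 0.08 (log2, SE) on fractal hemispheres and by 1.74 ± 0.08 on smooth ones, and both were called. The response on fractal hemispheres was smaller than that on smooth ones by an interaction of −0.57 ± 0.11, also called. THP-1 macrophages raised WNT5A by 0.59 ± 0.07 on fractal hemispheres and by 0.59 ± 0.08 on smooth ones, both called, and the interaction was −0.00 ± 0.11. Fractal minus smooth differences were 0.38 ± 0.08 in controls and 0.38 ± 0.07 with THP-1 macrophages, both called, and −0.18 ± 0.07 under cytokines, not called. The control difference was 0.35 and no longer called without smooth control replicate 2, and the cytokine difference was −0.25 and called without the pair of libraries that stood apart. Each surface's 2 treatment comparisons share the same control libraries.

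WNT5B, the close paralog of WNT5A, moved the other way under cytokines, where its level was lower. With THP-1 macrophages on smooth hemispheres both genes were higher. In cytokine-treated cells WNT5B was at 29.8, 32.1 and 28.2 CPM on fractal hemispheres, against 27.9, 31.7 and 28.6 CPM on smooth ones. With THP-1 macrophages WNT5B was at 43.8, 43.7 and 78.5 CPM on fractal hemispheres, against 84.5, 82.1 and 81.6 CPM on smooth ones. In controls WNT5B was at 52.4, 50.3 and 48.8 CPM on fractal hemispheres, against 48.7, 51.2 and 50.1 CPM on smooth ones. The surfaces overlapped in controls and under cytokines, and every cytokine library was below every control library. Among fractal THP-1 libraries, replicate 3, the library with few mitochondrial counts, was a little below the smooth THP-1 libraries and the other two were below all controls.

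Cytokines changed WNT5B by −0.75 ± 0.15 on fractal and −0.77 ± 0.15 on smooth hemispheres, both called. THP-1 macrophages gave 0.12 ± 0.15 on fractal hemispheres, not called, and 0.73 ± 0.14 on smooth ones, called. The fractal THP-1 value depended on replicate 3: without it WNT5B was lower than in fractal controls, at −0.21, and was called. Fractal minus smooth with THP-1 macrophages was −0.59 ± 0.14 and called, −0.92 and called without that replicate, and −0.57 and not called when only these groups were fitted. The THP-1 interaction was −0.60 ± 0.20 and not called, but −0.94 and called without that replicate, and it was also called with DESeq2 (−0.58) and with no filter on low counts (−0.62).

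DKK1, which blocks Wnt signalling at LRP6, had the largest range of the 8 genes on a log scale of CPM. With THP-1 macrophages DKK1 was at 1.23, 1.54 and 0.421 CPM on fractal hemispheres, from 21, 26 and 5 counts, against 4.07, 2.74 and 4.57 CPM on smooth ones. In cytokine-treated cells DKK1 was at 32.4, 36.5 and 35.7 CPM on fractal hemispheres, against 32.3, 67.0 and 42.6 CPM on smooth ones. In controls DKK1 was at 80.1, 85.0 and 81.1 CPM on fractal hemispheres, against 58.4, 58.6 and 63.9 CPM on smooth ones. Fractal libraries were all above smooth ones in controls and all below them with macrophages. Every THP-1 library was below every library of the other groups. Smooth cytokine libraries were spread widely and overlapped both the fractal cytokine and the smooth control libraries.

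With THP-1 macrophages, mean DKK1 fell to 1.3% of the fractal control mean and to 6.29% of the smooth control mean. On the log2 scale these changes were −6.18 ± 0.30 on fractal and −3.99 ± 0.25 on smooth hemispheres, both called, with a called interaction of −2.19 ± 0.42. The cytokine changes were −1.24 ± 0.20 on fractal hemispheres, called, and −0.35 ± 0.19 on smooth ones, not called, with an interaction of −0.88 ± 0.28 that was not called. The smooth cytokine value depended on replicate 2, the library rich in mitochondrial counts, and was −0.69 and called without it. The cytokine interaction was called with DESeq2 (−0.88), with no filter on low counts (−0.90), without smooth cytokines replicate 1 (−1.12) and without the pair of libraries that stood apart (−0.55). Without smooth cytokines replicate 2 alone it was −0.55 ± 0.20 and not called.

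Fractal minus smooth DKK1 was −1.74 ± 0.38 with THP-1 macrophages and called, −0.44 ± 0.20 under cytokines and 0.45 ± 0.19 in controls, the last 2 not called. The THP-1 difference was −1.45 and not called without fractal THP-1 replicate 3, whose 5 counts were the fewest. The control difference was 0.45 and called both when only the control groups were fitted and without the pair of libraries that stood apart. The cytokine difference rested on single smooth libraries: it was −0.10 ± 0.15 and not called without smooth cytokines replicate 2, and −0.67 and called without smooth cytokines replicate 1. Macrophage markers summed to 22.5–23.4 CPM in fractal THP-1 libraries and 39.7–46.4 CPM in smooth THP-1 libraries, and their part in the DKK1 difference was not tested. DKK1 shares 212 exon bases with PRKG1-AS1 on the other strand, which had 0 to 23 counts in any library, and without strand the reads of the pair cannot be told apart.

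DKK3 stayed in a narrow band in all 18 libraries. It was at 251 to 272 CPM under cytokines on fractal hemispheres and 257 to 284 CPM on smooth ones. With THP-1 macrophages DKK3 was at 267 to 282 CPM on fractal hemispheres and 273 to 276 CPM on smooth ones. In controls DKK3 was at 250 to 259 CPM on fractal hemispheres and 257 to 265 CPM on smooth ones. Each group overlapped its neighbours in the order of means, which ran from fractal control to fractal THP-1. On each surface, though, every THP-1 library was above every control library. DKK3 was called in none of the 9 comparisons and had an unadjusted p under 0.05 in none, and its log2 differences lay between −0.06 ± 0.07 for fractal minus smooth under cytokines and 0.11 ± 0.07 for THP-1 macrophages against control on fractal hemispheres. The THP-1 difference was called with DESeq2 (0.14) and with upper-quartile scaling (0.20).

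DKK2, a family member outside the 8, was at 27.6, 30.2 and 21.5 CPM with THP-1 macrophages on fractal hemispheres, against 24.3, 17.3 and 19.1 CPM on smooth ones. In controls DKK2 was at 2.52, 4.18 and 2.50 CPM on fractal hemispheres, against 4.82, 4.49 and 4.93 CPM on smooth ones. DKK2 was thus highest in the groups where DKK1 was lowest. Per kilobase of exon, DKK2 averaged 6.12 ± 1.04 CPM (SD, n = 3) in fractal THP-1 libraries, where DKK1 averaged 0.482 ± 0.261 CPM, and 0.711 ± 0.223 CPM in fractal controls, where DKK1 averaged 37.2 ± 1.17 CPM. DKK3, at 54.6 ± 1.64 CPM per kilobase in fractal THP-1 libraries and 50.5 ± 0.90 CPM per kilobase in fractal controls, was the most abundant of the 3 DKK transcripts in both.

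**Figure D3:**
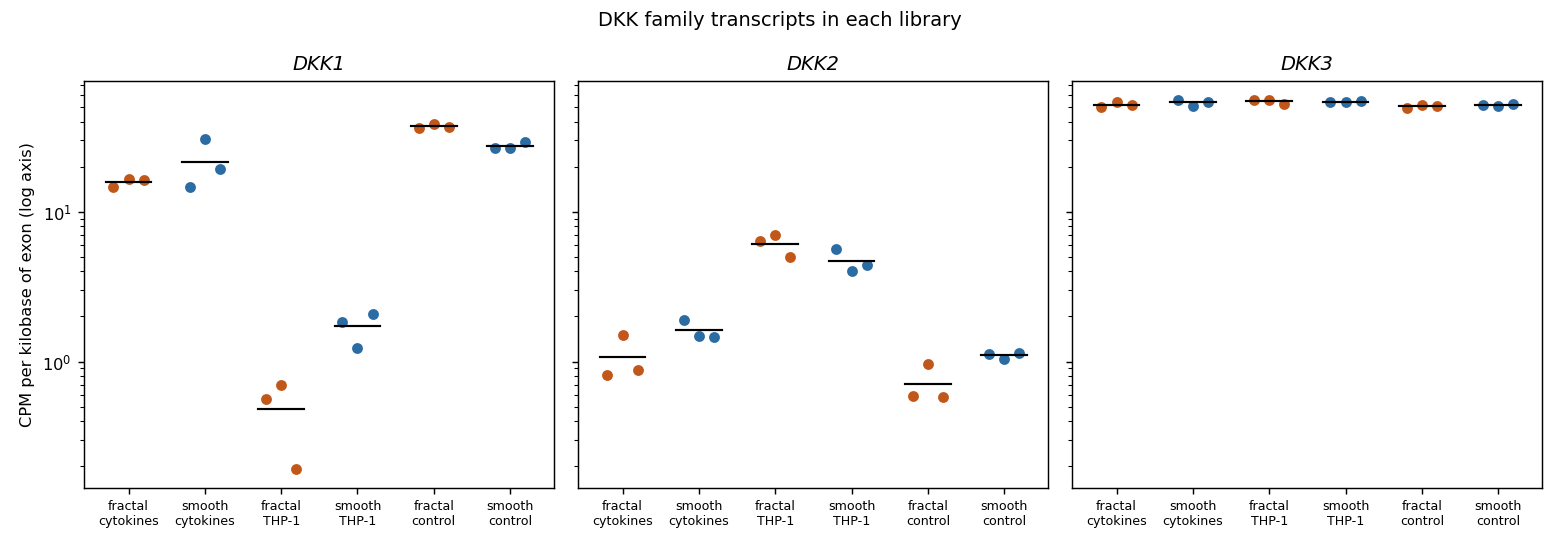
CPM per kilobase of exon (log axis) of DKK1, DKK2 and DKK3 in each library, by group, with fractal hemispheres in orange, smooth ones in blue and the group mean as a black bar. DKK2 lies above DKK1 in both THP-1 groups and below it in the cytokine and control groups, while DKK3 stays near 50.5 to 54.6 CPM per kilobase.

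SFRP1 (ENSG00000104332, chromosome 8 from 41261958 to 41309497 on the minus strand), the antagonist that binds Wnt ligands directly, changed its order between the surfaces with the condition. With THP-1 macrophages SFRP1 was at 101, 101 and 95.5 CPM on fractal hemispheres, against 164, 147 and 141 CPM on smooth ones. In cytokine-treated cells SFRP1 was at 118, 127 and 127 CPM on fractal hemispheres, against 85.8, 77.6 and 116 CPM on smooth ones. In controls SFRP1 was at 125, 129 and 130 CPM on fractal hemispheres, against 95.2, 95.3 and 92.9 CPM on smooth ones. Fractal libraries were all above smooth ones in controls and under cytokines, and all below them with THP-1 macrophages. Smooth cytokine, smooth control and fractal THP-1 libraries had similar means, with smooth cytokine libraries overlapping the other two. Fractal cytokine and fractal control libraries overlapped as well.

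THP-1 macrophages changed SFRP1 by −0.37 ± 0.10 on fractal hemispheres and by 0.67 ± 0.10 on smooth ones, both called, with a called interaction of −1.04 ± 0.14. Fractal minus smooth was −0.61 ± 0.10 with THP-1 macrophages, 0.41 ± 0.10 under cytokines and 0.44 ± 0.10 in controls, all called. The control call was lost without any 1 of the 6 control libraries, at 0.43 to 0.45. The cytokine call was lost without smooth cytokines replicate 1 or 2 or fractal cytokines replicate 2 or 3, at 0.29 to 0.38, and when only these groups were fitted. Cytokines against control gave −0.05 ± 0.10 on fractal and −0.02 ± 0.10 on smooth hemispheres, neither called. On smooth hemispheres that was −0.23 and called without smooth cytokines replicate 3.

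FZD7, a Frizzled receptor for Wnt ligands, was higher with THP-1 macrophages on both surfaces, at 2.61 times the control mean on fractal hemispheres and 1.94 times on smooth ones. With macrophages FZD7 was at 120, 123 and 166 CPM on fractal hemispheres, against 123, 121 and 115 CPM on smooth ones. In cytokine-treated cells FZD7 was at 50.0, 54.2 and 49.3 CPM on fractal hemispheres, against 50.1, 41.0 and 54.5 CPM on smooth ones. In controls FZD7 was at 59.2, 45.9 and 51.3 CPM on fractal hemispheres, against 58.9, 65.4 and 60.8 CPM on smooth ones. Every THP-1 library was above all others, and the surfaces overlapped in each condition. The highest value was that of fractal THP-1 replicate 3.

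THP-1 macrophages raised FZD7 by 1.38 ± 0.12 on fractal and 0.96 ± 0.12 on smooth hemispheres, both called. The interaction of 0.43 ± 0.16 was not called. It was called with upper-quartile scaling (0.49), with no filter on low counts (0.41), and without fractal control replicate 1 or fractal THP-1 replicate 1. Without fractal THP-1 replicate 3, the library with the highest FZD7 value, the interaction was smaller, at 0.26 ± 0.12, and not called. Cytokines gave −0.03 ± 0.12 on fractal hemispheres, not called, and −0.35 ± 0.12 on smooth ones, called. The smooth call was lost without smooth control replicate 2 or 3 or smooth cytokines replicate 2. Fractal minus smooth FZD7 was −0.24 ± 0.12 in controls and not called, and was called when only the control groups were fitted and without the pair of libraries that stood apart.

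LRP6, the co-receptor that DKK1 binds, varied little. With THP-1 macrophages LRP6 was at 63.7 to 69.9 CPM on fractal hemispheres and 60.2 to 74.7 CPM on smooth ones. In cytokine-treated cells LRP6 was at 64.8 to 72.8 CPM on fractal hemispheres and 54.9 to 78.4 CPM on smooth ones. In controls LRP6 was at 80.4, 80.9 and 82.4 CPM on fractal hemispheres, above all other libraries, against 76.0, 75.8 and 66.6 CPM on smooth ones. The other groups overlapped one another. Fractal minus smooth LRP6 in controls was 0.16 ± 0.10 and not called, and was called when only the control groups were fitted. Against fractal controls, the difference in LRP6 was −0.29 ± 0.10 with THP-1 macrophages, called, and −0.24 ± 0.10 under cytokines, not called. The THP-1 call was lost with upper-quartile scaling (−0.20) and without fractal control replicate 3 (−0.29). The cytokine difference was called with no filter on low counts, when only these groups were fitted, without the pair of libraries that stood apart, and without smooth cytokines replicate 2, smooth cytokines replicate 3 or fractal THP-1 replicate 3.

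AXIN2, a β-catenin target that feeds back on the pathway, was near the limit of detection. With THP-1 macrophages AXIN2 had 32, 34 and 31 counts on fractal hemispheres, against 30, 26 and 24 counts on smooth ones. In cytokine-treated cells AXIN2 had 10, 10 and 13 counts on fractal hemispheres, against 15, 8 and 20 counts on smooth ones. In controls AXIN2 had 8, 7 and 8 counts on fractal hemispheres, against 8, 26 and 7 counts on smooth ones. In CPM, THP-1 libraries were above all others on fractal hemispheres, whereas smooth control replicate 2, with its 26 counts, overlapped the smooth THP-1 libraries. THP-1 macrophages raised AXIN2 by 2.36 ± 0.49 on fractal hemispheres, called, and gave 0.89 ± 0.46 on smooth ones, not called. The smooth value was 1.66 and called without smooth control replicate 2. AXIN2 was called in no other comparison, and the THP-1 interaction of 1.46 ± 0.67 was not called. Macrophage markers also had counts in these THP-1 libraries, and the part of macrophage RNA in the AXIN2 values was not tested. Of its exon bases, 1316 are shared with ENSG00000266076, which had 0 counts in all libraries.

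Without fractal THP-1 replicate 3, the library with few mitochondrial counts, THP-1 macrophages against control on fractal hemispheres gave −5.89 ± 0.37 for DKK1, 0.60 ± 0.07 for WNT5A, 1.21 ± 0.09 for FZD7, 2.20 ± 0.55 for AXIN2, −0.35 ± 0.10 for SFRP1 and −0.27 ± 0.10 for LRP6, all still called. Without it, fractal minus smooth with THP-1 macrophages was −0.58 ± 0.10 for SFRP1 and 0.39 ± 0.07 for WNT5A, both still called. The THP-1 interactions without it were −1.89 ± 0.54 for DKK1 and −1.02 ± 0.14 for SFRP1, both still called. Without smooth cytokines replicate 2, the library rich in mitochondrial counts, cytokines against control on smooth hemispheres gave 1.80 ± 0.07 for WNT5A and −0.83 ± 0.17 for WNT5B, both still called, and the WNT5A interaction was −0.64 ± 0.10 and still called.

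Levels of different genes were compared per kilobase of exon. In fractal controls the order from high to low was DKK3 at 50.5 ± 0.90 CPM per kilobase (SD, n = 3), DKK1 at 37.2 ± 1.17, SFRP1 at 26.9 ± 0.480, WNT5A at 18.4 ± 0.353, FZD7 at 13.5 ± 1.73, WNT5B at 11.7 ± 0.420, LRP6 at 7.86 ± 0.102 and AXIN2 at 0.080 ± 0.015. FZD7 and WNT5B differed by about the SD of FZD7, and the other neighbours by more than their SDs. In fractal THP-1 libraries DKK3 came first at 54.6 ± 1.64 CPM per kilobase and FZD7 second at 35.3 ± 6.76, while DKK1, at 0.482 ± 0.261, was level with AXIN2 at 0.415 ± 0.075. In fractal cytokine libraries WNT5A was second only to DKK3, at 41.4 ± 0.818 CPM per kilobase, and DKK1 was at 15.8 ± 0.986.

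Among the 13074 protein-coding genes tested, those whose log2 CPM over the 18 libraries most resembled each gene were found by Pearson's r, which is a description since the libraries fall into groups and share their controls. For DKK1 they included DSG2 (r = 0.9886) and S100A10 (0.9853), and for WNT5A they were PTGES (0.9759), CHI3L2 (0.9626) and PDE7B (0.9616). For FZD7 they were TMTC4 (0.9871), SYTL2 (0.9781) and PRICKLE1 (0.9711), the last a planar polarity gene, and for WNT5B SEC14L1 (0.9447), LRP12 (0.9402) and TM4SF1 (0.9367). AXIN2 was most like GRIP1 (0.9221), ATP10D (0.9122) and WHAMM (0.9098), and DKK3 most like CLDN18 (0.8738), STOX2 (0.8719) and ZBTB4 (0.8682). LRP6 was most like TCAF1 (0.8629), FAM20B (0.8382) and LONP2 (0.8317). SFRP1 had the weakest likenesses, with VCL (0.7903), RPRD1B (0.7869) and ELF4 (0.7759).

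The lists of the pathway hold 89 other genes, of which 51 passed the filter on low counts. Of 17 other Wnt ligand genes, 4 were tested: WNT2B, WNT3, WNT7B and WNT9A. Per kilobase of exon they were all below WNT5A and WNT5B in fractal controls, with WNT7B at 3.96 ± 0.138 CPM (SD, n = 3), WNT3 at 1.27 ± 0.160 CPM, WNT2B at 0.498 ± 0.054 CPM and WNT9A at 0.111 ± 0.089 CPM. With THP-1 macrophages WNT2B rose by 1.36 ± 0.16 on fractal hemispheres (adjusted p 1.5e-07, edgeR) and by 1.21 ± 0.16 on smooth ones (2.2e-06), and WNT7B by 1.10 ± 0.14 (4.5e-07) and 1.08 ± 0.14 (1.2e-06). Under cytokines WNT2B fell, by a change of −0.77 ± 0.18 on fractal hemispheres (adjusted p 0.0020, edgeR) and −1.12 ± 0.18 on smooth ones (3.8e-05). WNT7B gave −0.28 ± 0.15 on fractal hemispheres under cytokines (adjusted p 0.175, edgeR) and −0.64 ± 0.15 on smooth ones (0.0019), where it fell. WNT2B and WNT7B had the same signs as WNT5B under cytokines and, on smooth hemispheres, with macrophages. WNT2B shares 2661 exon bases with ST7L on the other strand, and without strand the reads of the pair cannot be told apart. With all 18 libraries WNT3 was called in none of the 9 comparisons by edgeR or DESeq2 and had an unadjusted p under 0.05 in none. Without fractal cytokines replicate 1, WNT3 under cytokines on fractal hemispheres was −0.76 (adjusted p 0.0385, edgeR) and called, against −0.44 with all libraries (0.198). WNT9A was called in 1 comparison, THP-1 macrophages on fractal hemispheres, at 1.71 ± 0.61 (adjusted p 0.0232, edgeR). That call was lost without fractal control replicate 1 or 3 or fractal THP-1 replicate 1 (adjusted p up to 0.123). It was also lost when only these groups were fitted (0.0642). On smooth hemispheres THP-1 macrophages gave 1.32 ± 0.60 for WNT9A, not called (adjusted p 0.0911, edgeR). That change was called when only these groups were fitted (0.0102) and without the pair of libraries that stood apart (0.0480). WNT9A was low, with a mean of 1.635 CPM in smooth THP-1 libraries and 0.442 CPM in fractal controls.

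Of the genes for Wnt secretion, WLS rose with both treatments on both surfaces. WLS, the carrier that brings Wnt proteins to the cell surface, was at 373, 363 and 398 CPM with THP-1 macrophages on fractal hemispheres, against 354, 341 and 322 CPM on smooth ones. In controls WLS was at 124, 123 and 127 CPM on fractal hemispheres, against 154, 156 and 158 CPM on smooth ones. WLS rose with THP-1 macrophages by 1.60 ± 0.08 on fractal hemispheres (adjusted p 1.5e-14, edgeR) and by 1.12 ± 0.08 on smooth ones (3.1e-11), with an interaction of 0.48 ± 0.11 (0.0036). Under cytokines WLS rose by 0.67 ± 0.08 (adjusted p 3.6e-07, edgeR) on fractal and 0.56 ± 0.08 (4.5e-06) on smooth hemispheres, and PORCN, the enzyme that attaches the lipid to Wnt proteins, by 0.61 ± 0.09 (7.6e-06) and 0.66 ± 0.09 (2.7e-06). In controls WLS was the 1 other pathway gene called between surfaces, lower on fractal hemispheres with a difference of −0.32 ± 0.08 (adjusted p 0.0254, edgeR), and that call was lost without any 1 of the 6 control libraries (adjusted p 0.094 to 0.140).

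Of 12 other receptor genes tested, 6 (50%, against 50.5% of all genes) were called with THP-1 macrophages on fractal hemispheres, all higher, and 5 (41.7%, against 35.1%) on smooth ones, of which 4 were higher. Under cytokines 4 (33.3%, against 25.8% of all genes) were called on fractal and 3 (25%, against 25.7%) on smooth hemispheres, all higher. Called in either direction, these shares were near those of all genes. Of all genes, 25% on fractal and 17.3% on smooth hemispheres were called higher with THP-1 macrophages, and 13% and 13.2% under cytokines. FZD1, a Frizzled gene, rose by 1.92 ± 0.15 with THP-1 macrophages on fractal hemispheres (adjusted p 6.4e-11, edgeR) and by 1.51 ± 0.15 on smooth ones (1.4e-08). Under cytokines FZD1 rose by 1.47 ± 0.15 (adjusted p 3.6e-08, edgeR) on fractal and 1.49 ± 0.15 (2.4e-08) on smooth hemispheres, where FZD7 was not called higher. ROR1, a receptor for WNT5A, was lower on fractal than on smooth hemispheres with THP-1 macrophages, at −0.76 ± 0.10 (adjusted p 6.2e-06, edgeR), with an interaction of −0.66 ± 0.15 (0.0030). FZD5 and LGR4, a receptor for R-spondins, were higher there, by 0.73 ± 0.23 (adjusted p 0.0277, edgeR) and 0.35 ± 0.10 (0.0148), and each lost its call without 1 of several THP-1 libraries, for FZD5 any smooth one or fractal replicate 1 (up to 0.102) and for LGR4 smooth replicate 1 or 2 or fractal replicate 2 (up to 0.0828).

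Among the other antagonist genes, DKK2 and KREMEN1 were tested. DKK2 rose with THP-1 macrophages by 3.09 ± 0.23 on fractal hemispheres (adjusted p 2.8e-11, edgeR) and by 2.09 ± 0.22 on smooth ones (4.2e-08), the reverse of DKK1, with an interaction of 1.00 ± 0.31 (0.0333). That interaction lost its call in 9 of the 18 fits that left out 1 library, those without each smooth control, fractal control replicate 1 or 3, smooth THP-1 replicate 2 or 3, or fractal THP-1 replicate 1 or 2 (adjusted p up to 0.107). KREMEN1, a receptor that acts with DKK proteins to remove LRP6, was at 19.7, 18.3 and 16.1 CPM under cytokines on fractal hemispheres, against 26.7, 24.0 and 23.1 CPM on smooth ones. KREMEN1 was the 1 other pathway gene called between surfaces under cytokines, at −0.45 ± 0.12 (adjusted p 0.0246, edgeR), and the 1 whose cytokine response differed, at −0.75 ± 0.17 (0.0127). The first of these calls was lost without smooth cytokines replicate 1 or fractal cytokines replicate 2 or 3 (adjusted p up to 0.138). With THP-1 macrophages KREMEN1 was higher on fractal than on smooth hemispheres, by 0.53 ± 0.12 (adjusted p 0.0019, edgeR).

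The other listed target genes moved in both directions. Of 5 tested, 4 were called with THP-1 macrophages on fractal hemispheres, 1 higher and 3 lower, and 4 on smooth ones, 2 higher and 2 lower (80% each, against 50.5% of all genes on fractal and 35.1% on smooth hemispheres). MYC, a growth regulator, fell with THP-1 macrophages, with changes of −2.27 ± 0.14 on fractal hemispheres (adjusted p 3.9e-12, edgeR) and −1.71 ± 0.13 on smooth ones (8.0e-10). CCND1, which encodes cyclin D1, was at 490, 491 and 531 CPM with THP-1 macrophages on fractal hemispheres, against 830, 801 and 775 CPM on smooth ones. That difference of −0.67 ± 0.07 passed the test (adjusted p 9.9e-08, edgeR), as did the interaction of −0.65 ± 0.10 (4.1e-05). MYC was also lower on fractal hemispheres there, at −0.58 ± 0.14 (adjusted p 0.0040, edgeR), a call lost when only these groups were fitted (0.0910). Under cytokines CCND1 fell, with changes of −0.82 ± 0.07 (adjusted p 3.3e-09, edgeR) on fractal and −0.99 ± 0.07 (8.2e-11) on smooth hemispheres, as did MYC, with −0.60 ± 0.13 (0.0012) and −1.01 ± 0.13 (2.5e-06). Both genes are controlled by many pathways besides Wnt.

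In the route that acts on cell polarity, 7 of 9 tested genes were called with THP-1 macrophages on each surface, 5 higher and 2 lower on fractal hemispheres and 4 higher and 3 lower on smooth ones (77.8% each, against 50.5% of all genes on fractal and 35.1% on smooth hemispheres). PRICKLE1, a core polarity gene, rose by 1.31 ± 0.13 on fractal hemispheres (adjusted p 4.2e-09, edgeR), and VANGL1, another, fell, at −1.07 ± 0.12 (1.0e-07). PRICKLE1 shares 1858 exon bases with an antisense gene and 438 with PPHLN1 on the other strand, and their reads cannot be told apart. On smooth hemispheres VANGL1 fell, at −0.39 ± 0.12 (adjusted p 0.0141, edgeR), a call lost without smooth THP-1 replicate 2 or 3 (up to 0.0707), and CELSR1, a polarity cadherin, fell, at −0.71 ± 0.09 (1.2e-06). Of the 10 tested genes of cytoplasmic signalling and the destruction complex, 3 were called with THP-1 macrophages on fractal hemispheres and 3 on smooth ones (30% each, against 50.5% and 35.1% of all genes), and the median change over the 10 was −0.04 and −0.07. Of 7 TCF/LEF factors and co-activators, 4 were called on each surface with macrophages, all higher (57.1% each, against 50.5% of all genes on fractal and 35.1% on smooth hemispheres). Called higher were 25% of all genes on fractal and 17.3% on smooth hemispheres.

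Taken over the 51 genes, THP-1 macrophages gave 30 calls on fractal hemispheres (22 higher, 8 lower; 58.8%, against 50.5% of all genes) and 28 on smooth ones (20 higher, 8 lower; 54.9%, against 35.1%). Of all genes, 25% were called higher and 25.5% lower on fractal hemispheres, and 17.3% higher and 17.7% lower on smooth ones. The median log2 change of the 51 was 0.22 on fractal and 0.28 on smooth hemispheres, against 0.04 and 0.02 over all genes. Cytokines gave 11 calls on fractal hemispheres (8 higher, 3 lower; 21.6%, against 25.8% of all genes) and 17 on smooth ones (11 higher, 6 lower; 33.3%, against 25.7%). For all genes these shares were 13% higher and 12.9% lower on fractal hemispheres, and 13.2% higher and 12.4% lower on smooth ones. The fractal cytokine count was 17 without fractal THP-1 replicate 3 and 20 without the pair of libraries that stood apart, so the 2 cytokine counts are not shown to differ. Fractal minus smooth gave 12 calls with THP-1 macrophages (5 higher, 7 lower; 23.5%, against 20% of all genes), 1 under cytokines (1.96%, against 4.46%) and 1 in controls (1.96%, against 1.77%). The THP-1 interaction gave 8 calls (4 higher, 4 lower; 15.7%, against 13.2% of all genes) and the cytokine interaction 1 (1.96%, against 2.7%). The summed macrophage markers were higher in each THP-1 group than in the controls of its surface, and lower in fractal than in smooth THP-1 libraries, and their part in these counts was not tested.

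**Figure D4:**
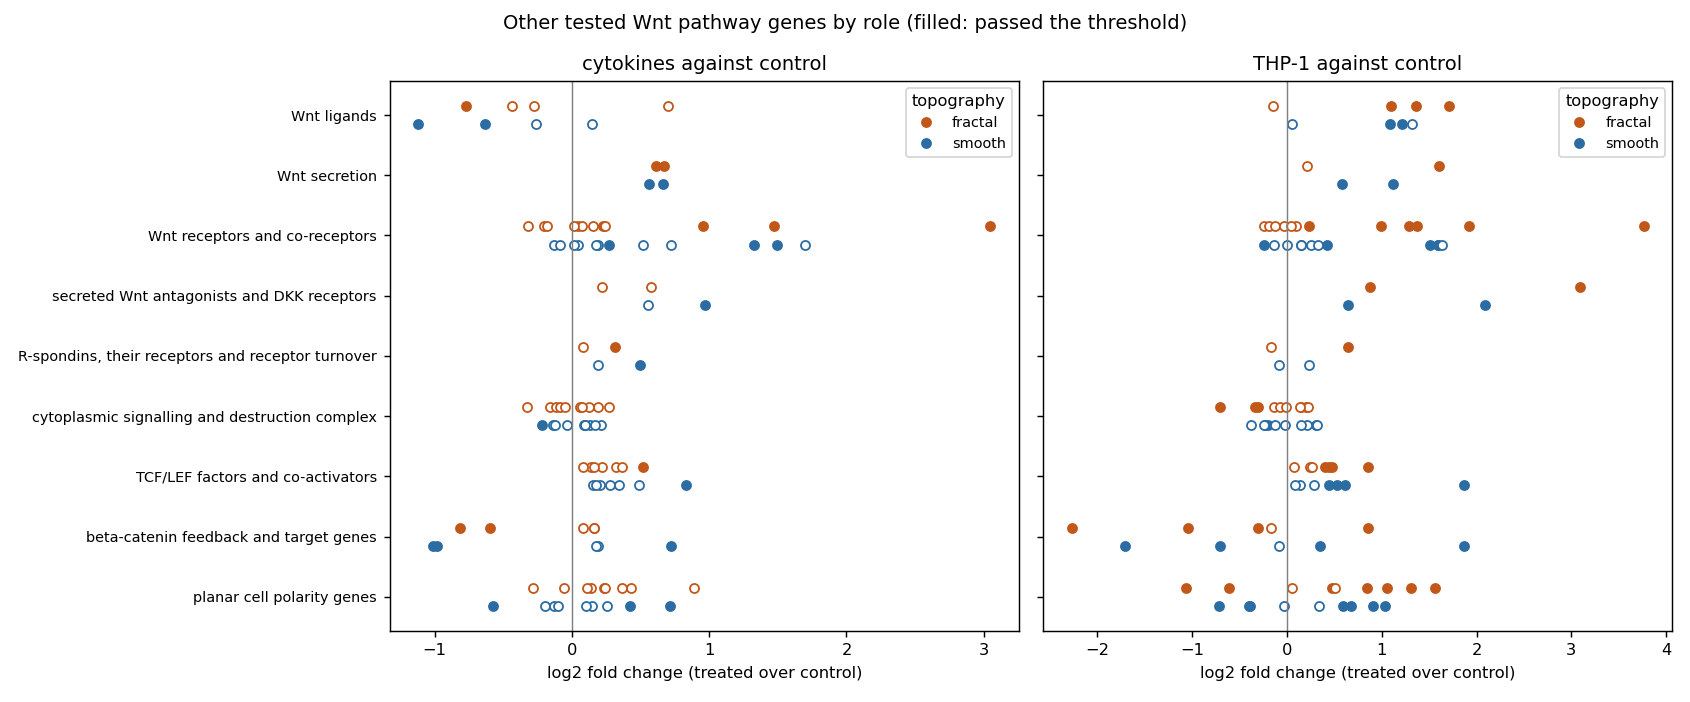
Log2 fold change of the 51 other tested pathway genes under cytokines (left) and THP-1 macrophages (right) against control, by role, with fractal hemispheres in orange above smooth ones in blue and filled points for genes past the threshold. With THP-1 macrophages 22 of the 51 were called higher and 8 lower on fractal hemispheres, against 25% and 25.5% of all genes. On smooth ones 20 were called higher and 8 lower, against 17.3% and 17.7% of all genes.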

How the data were processed

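Poly-A RNA from a PicoPure extraction was sequenced in paired ends without keeping the strand, per the labels' protocols. Per the submitters' processing notes, CASAVA, HISAT2 2.0.5, featureCounts 1.5.0-p3 and GRCh38 (hg38) were used, and the role of each and the annotation are not given in the sources used here. The authors deposited raw counts for 58735 Ensembl genes in 18 libraries, without normalization. Without strand, reads of overlapping genes on opposite strands cannot be separated, and reads from close paralogs can be assigned to either. CCND1 shares 497 exon bases with LTO1 and WLS shares 111 with GNG12-AS1, both on the other strand.

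Positions came from GENCODE 29 and promoters from RefSeq. Genes were kept by filterByExpr (minimum count 10, minimum total 15), which left 16129, and libraries were scaled by TMM. Then 1 mean per group was fitted with edgeR 4.0.16 in R 4.3.3 (robust quasi-likelihood F-tests, 12 residual degrees of freedom). The coefficient of variation between libraries, as estimated by edgeR, was 12.2%, a spread that may be technical. p-values were adjusted by Benjamini-Hochberg over all tested genes in each of 9 comparisons, with a threshold of 0.05. Genes named beyond the 8 are up to 4 per direction and comparison by adjusted p, the tested ligand and DKK genes, and the 3 genes most like each of the 8 by log2 CPM (prior count 2), and not every gene so chosen is reported here. The 8 genes, the lists and the tests were chosen with earlier results of these data known. Alternatives were DESeq2 1.42.0, RLE and upper-quartile scaling, other filters, a fold threshold, fitting just the groups compared, a block for the replicate number, leaving out each library, and leaving out smooth cytokines replicate 2 with fractal THP-1 replicate 3. The fit was tested on simulated data. Totals of 11488204 to 21264180 counts leave low genes such as AXIN2 imprecise. Figures were drawn with matplotlib 3.10.9.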

Additional observations from a re-analysis of the deposited data

Results flagged for a closer look

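For 12 genes the response to a treatment differed between the surfaces, by the test of the interaction (log2 change on fractal hemispheres minus that on smooth ones, edgeR quasi-likelihood test). Of all tested genes, 2.7% were called for the cytokine interaction and 13.2% for the THP-1 interaction. Of the 51 other pathway genes, 1.96% and 15.7% were called, so nothing is read from the count of genes. For the cytokines the genes were WNT5A, at −0.57, and KREMEN1, at −0.75.

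For THP-1 macrophages the interaction was −2.19 for DKK1, −1.04 for SFRP1, −0.65 for CCND1, −0.66 for ROR1, 0.48 for WLS, −0.68 for VANGL1, 0.64 for PRICKLE1, 1.00 for DKK2, 0.46 for CELSR2 and −0.56 for MYC. WNT5A, DKK1 and SFRP1 were proposed from these libraries, so their values are a description. Leaving out 1 library at a time ended the MYC call in 13 of 18 fits (adjusted p up to 0.106, edgeR), that of CELSR2 in 10 (up to 0.116), that of DKK2 in 9 (up to 0.107) and that of PRICKLE1 in 3 (up to 0.0663), and ended none of the other 8. Fractal THP-1 replicate 3 stood apart from its group and enters each of these THP-1 values. The MYC call was near the threshold (adjusted p 0.0491, edgeR). It was also lost with RLE scaling (0.0541), with upper-quartile scaling (0.0859) and when only the groups of the comparison were fitted (0.0528).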

How the results depend on the processing

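Counts of other pathway genes called moved as follows. For fractal minus smooth in controls the count of 1 became 2 with DESeq2, 2 with upper-quartile scaling, 12 with only the groups of the comparison, 6 without the pair of libraries that stood apart and 0 with an absolute log2 change of at least 1, and leaving out 1 library gave 0 to 5. Under cytokines the count of 1 became 2 with no low-count filter, 2 with only those groups, 6 without the pair and 0 with the fold threshold, and leaving out 1 library gave 0 to 4. With THP-1 macrophages the count of 12 became 5 with only those groups and 0 with the fold threshold (8 to 15 leaving out 1 library). For cytokines against control on fractal hemispheres 11 became 17 with only those groups, 20 without the pair and 2 with the fold threshold (8 to 17 leaving out 1), and on smooth ones 17 became 4 with the fold threshold (15 to 21). For THP-1 macrophages against control the fold threshold gave 15 in place of 30 on fractal hemispheres (27 to 34) and 10 in place of 28 on smooth ones (23 to 32). The cytokine interaction count of 1 became 3 with only those groups, 7 without the pair and 0 with the fold threshold (1 to 4). The THP-1 interaction count of 8 became 13 with DESeq2, 18 without the pair and 1 with the fold threshold (5 to 16). The fold threshold lowers counts by construction, and the cause of the other shifts was not tested.

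WNT5B with THP-1 macrophages on fractal hemispheres changed sign, at −0.21 without fractal THP-1 replicate 3 and at −0.21 without the pair, against 0.12 with all libraries (−0.21 to 0.26 leaving out 1 library), and the cause was not tested. For the 8 genes, 27 results were called, and 19 of the 702 alternative fits of these lost the call while 0 changed sign. Of the 1169 alternative fits of their 45 results that were not called, 33 were called. AXIN2 and DKK1 with THP-1 macrophages rest on few counts, which limits their precision. No pairing of libraries by replicate number was seen in the counts: deviations of libraries with the same number correlated at −0.0672 to 0.0641, against −0.0724 to 0.056 for different numbers. Such correlations cannot show whether libraries with the same number were handled together. With the replicate number as a block the counts were 1, 1 and 12 for fractal minus smooth in controls, under cytokines and with THP-1 macrophages, 11 and 17 for cytokines on fractal and smooth hemispheres, 30 and 28 for THP-1 macrophages, and 1 and 8 for the cytokine and THP-1 interactions, and 0 of 162 calls of named genes changed.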
